A study of Mus musculus with 2 samples.

Results

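A set of 5 miRNA genes that regulate synapses, Mir137, both Mir138 genes and both Mir129 genes, were followed in mouse hippocampus. They were taken by gene name from the GENCODE M21 annotation, which matched all 5 of them among the 2202 miRNA genes of the deposited count tables. RNA under 30 bases was sequenced from the layer of hippocampus of females of a strain labelled 5xFAD/CAST. The animals were adults 8 to 10 months old, and the labels give 1 group of 2 biological replicates. Both libraries fall under a shared donor entry, and no separate cultures, animals or dissections are named. The spread between them may therefore be technical, and p-values between them compare 2 libraries and not conditions. The 5xFAD transgenes are driven in neurons by the Thy1 promoter and serve as a model of amyloid disease, and CAST is an inbred strain derived from wild castaneus mice. The labels give no transgene status beyond the strain name and no mice without the transgenes, so no effect of the transgenes was measured here.

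A miRNA gene is transcribed into a long precursor, from which a hairpin is cut, and either arm of the hairpin can become a mature miRNA. The mature miRNA guides an Argonaute protein to messenger RNAs that pair with its seed, bases 2 to 8 counted from the 5′ end, and lowers their translation or stability. Several miRNAs of neurons are found in dendrites, where they limit the local synthesis of synaptic proteins. MIR137 lies in a region linked to schizophrenia in human genetic studies, and miR-137 is known to repress the chromatin enzyme Ezh2 and genes of synaptic vesicle release. In rat hippocampal neurons miR-138-5p represses the depalmitoylating enzyme Lypla1 (APT1) and limits the size of dendritic spines. In rodent hippocampal neurons miR-129-5p represses the potassium channel Kcna1 (Kv1.1), and in rat neurons it takes part in the weakening of synapses after long periods of high activity.

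The mature sequences listed for the 5 genes are shown because they mark where the copies of a miRNA can and cannot be told apart, and Mir129-1 is shown by its 5p arm. They are RefSeq's, build GRCm38.p6, in which all 5 genes were matched, and the seed is in capitals.
miR-137-5p: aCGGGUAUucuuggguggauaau
miR-137-3p: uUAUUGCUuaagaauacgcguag
miR-138-5p: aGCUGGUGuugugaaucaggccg
miR-138-1-3p: cGGCUACUucacaacaccaggg
miR-138-2-3p: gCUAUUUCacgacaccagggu
miR-129-5p: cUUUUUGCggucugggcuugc
miR-129-2-3p: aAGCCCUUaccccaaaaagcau
The 5p arm was identical in both Mir138 genes, and likewise in both Mir129 genes. The 7 mature sequences shown had 7 different seeds, and no other mature miRNA among the table's 1738 entries shared one of them. The 2 Mir138 3p arms differ in their seeds. No 3p arm is listed for Mir129-1, but its hairpin also holds the seed of miR-129-2-3p, so that seed is not particular to Mir129-2.

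The hairpins are shown because the counts of a copy rest on the bases that the other copy lacks. Capitals mark the longest run of bases that both copies share.
Mir138-1: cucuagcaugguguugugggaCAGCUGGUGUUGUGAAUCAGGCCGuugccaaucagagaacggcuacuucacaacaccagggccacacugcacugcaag
Mir138-2: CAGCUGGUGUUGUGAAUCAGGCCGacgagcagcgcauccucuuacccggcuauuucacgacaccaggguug
Mir129-1: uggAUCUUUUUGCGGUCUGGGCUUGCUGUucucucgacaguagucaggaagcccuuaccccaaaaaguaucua
Mir129-2: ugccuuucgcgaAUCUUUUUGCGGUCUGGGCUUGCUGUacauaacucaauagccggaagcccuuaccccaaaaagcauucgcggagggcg
The Mir138 copies share a run of 24 bases, which begins 1 base before miR-138-5p and ends 0 bases past it. The Mir129 copies share a run of 26 bases, which begins 2 bases before miR-129-5p and ends 3 bases past it. A read that holds only the mature 5p arm therefore matches both copies of its family. The next bases after the run are UUG in Mir138-1 and ACG in Mir138-2, and UCU in Mir129-1 and ACA in Mir129-2. The 3p arms differ at few bases, given here as the arm's base, its position from the arm's 5′ end and the base of the other copy's hairpin. The 22 bases of miR-138-1-3p matched the Mir138-2 hairpin at 20, with the differences C7U and A13G. The 21 bases of miR-138-2-3p matched the Mir138-1 hairpin at 18, with U5C, G11A and U21C. The 22 bases of miR-129-2-3p matched the Mir129-1 hairpin at 21, with C20U.

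**Figure D1:**
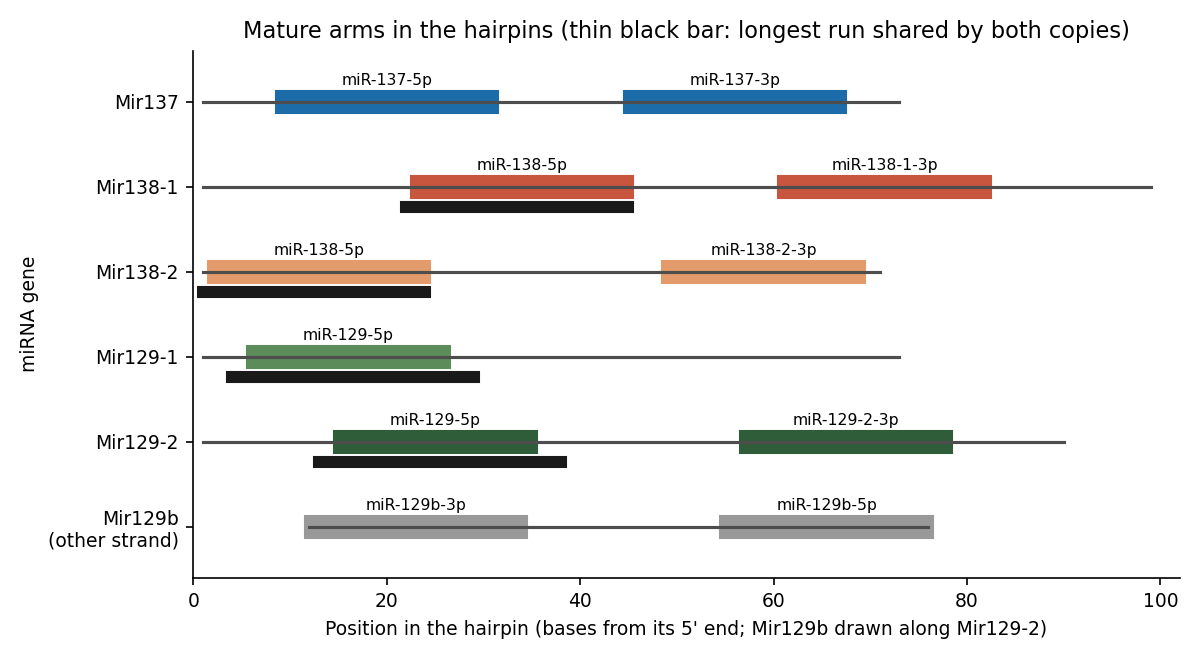
Map of the 5 hairpins, drawn to scale along their length in bases from the 5′ end, with the mature arms of the RefSeq table and, as a thin black bar, the run of bases shared by the copies of a family; Mir129b, on the other strand, is drawn along Mir129-2. The shared run covers the whole 5p arm in both Mir138 genes (24 bases) and both Mir129 genes (26 bases), and Mir137 has no such run.

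Of the 22-base windows of a hairpin, 3 of 78 in Mir138-1 and 3 of 50 in Mir138-2 occur in the other copy. In Mir129-1 it is 5 of 52 windows and in Mir129-2 it is 5 of 69. No such window of the Mir137 hairpin, 0 of 52, occurs in another of the 1005 hairpins compared, which leave out chromosome 18. Reads with several genomic positions stand on a line of their own in the count tables, outside the gene counts, and made up 36.3% of all reads in replicate 1 and 41.7% in replicate 2. How many of those reads were miR-138-5p or miR-129-5p is not known. A gene's count adds both arms, so the arms below cannot be told apart.

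Replicate 1 held 9962659 reads and replicate 2 held 12761689, of which 3135960 and 4377622 fell on the sense strand of a miRNA gene. Levels are those counts given per 1000000 assigned in that library (CPM), with exact Clopper-Pearson 95% intervals that cover counting error only, since PCR copies are not independent molecules. A count of 0 would set a limit of 0.957 CPM for replicate 1 and 0.685 CPM for replicate 2. Over 501 genes the libraries differed by a chi-square of 375 per degree of freedom, more than the counting error of 1 library, and they were counted as the 2 replicates that the labels give. The biological coefficient of variation between them was 0.385 over 459 genes (edgeR). Bulk tissue cannot tell fewer cells of a type from less RNA per cell. Of the neuronal markers Mir124a-1, Mir124a-2 and Mir124a-3, copies that make the same mature miR-124, replicate 1 held 2, 0 and 2 counts and replicate 2 held 8, 2 and 3. Reads that match several of these copies stand outside these counts.

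All 5 genes had counts well above the floor in both libraries, and their order was Mir137, Mir138-1, Mir138-2, Mir129-2 and Mir129-1. By these counts Mir137 was the highest of them at 5706 ± 1342 CPM (SD, n = 2) and Mir129-1 the lowest at 86.7 ± 1.76 CPM. Together they held 30040 counts in replicate 1 and 51354 in replicate 2, which was 0.958% and 1.17% of the counts, or 1.07% ± 0.152 (SD, n = 2). Of the members' own counts, Mir137 held 49.7% and 56.7%, the Mir138 genes 40.1% and 32.4%, and the Mir129 genes 10.3% and 10.8%. The Mir138 and Mir129 counts lack reads that hold only the shared 5p arm, which match both copies and stand outside the gene counts. Mir137 has no such shared run, so the order and shares may not be those of the mature miRNAs.

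Mir137 (ENSMUSG00000065569.2) had 14919 counts in replicate 1 and 29135 in replicate 2. These were 4757 CPM (interval 4682 to 4834) and 6655 CPM (6579 to 6732). Replicate 2 was the higher, and Mir137 ranked 39 and 28 in the libraries and 34 by its mean. Its SD was 23.5% of its mean, the widest of the 5. The gene lies at chr3:118433857-118433929 (mm10, plus strand), within an exon of the non-coding transcript gene Gm26871. The annotated miRNA gene Gm24155, which starts 792 bases past its end on the same strand, had 0 counts in both libraries. The nearest protein-coding gene is Dpyd, which encodes the enzyme that starts pyrimidine breakdown, 128200 bases away.

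Mir138-1 (ENSMUSG00000065414.1) had 6574 and 9825 counts, which were 2096 CPM and 2244 CPM, or 2170 ± 105 (SD, n = 2). The libraries were close, with an SD of 4.82% of the mean, and the gene ranked 58 by its mean. It lies at chr9:122682876-122682974 on the plus strand, within an exon of Gm47135, annotated as a transcribed pseudogene. The nearest protein-coding gene, Topaz1, a testis gene, is 64372 bases away.

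Mir138-2 (ENSMUSG00000065512.3) had 5463 and 6834 counts, which were 1742 CPM and 1561 CPM, or 1652 ± 128 (SD, n = 2). Here replicate 1 was the higher, and the gene ranked 73 by its mean. It lies at chr8:94324311-94324381 on the plus strand, within an exon of the long non-coding RNA gene C78859. Slc12a3, which encodes the thiazide-sensitive sodium chloride cotransporter, starts 4820 bases past its end, and Nup93, a nuclear pore gene, ends 7084 bases before it.

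Mir129-1 (ENSMUSG00000065469.1) had 268 and 385 counts, which were 85.5 CPM (interval 75.5 to 96.3) and 87.9 CPM (79.4 to 97.2). The intervals overlap, and the SD was 2.03% of the mean, the narrowest of the 5. Each interval is far wider than the gap between the libraries, so that SD does not mark a steadier gene. It ranked 210 by its mean. The gene lies at chr6:29022619-29022691 on the plus strand, within an exon of the long non-coding RNA gene Gm3294, and Lep, the leptin gene, is 37529 bases away.

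Mir129-2 (ENSMUSG00000065511.1) had 2816 and 5175 counts, which were 898 CPM and 1182 CPM, or 1040 ± 201 (SD, n = 2). Replicate 2 was the higher, and the gene ranked 91 by its mean. It lies at chr2:94241364-94241453 on the minus strand, inside the long non-coding RNA gene Mir670hg with no exon of it above the hairpin. Mir670, a miRNA of the same host and strand 19847 bases away, had 18 counts in each library, which were 5.74 CPM and 4.11 CPM.

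**Figure D2:**
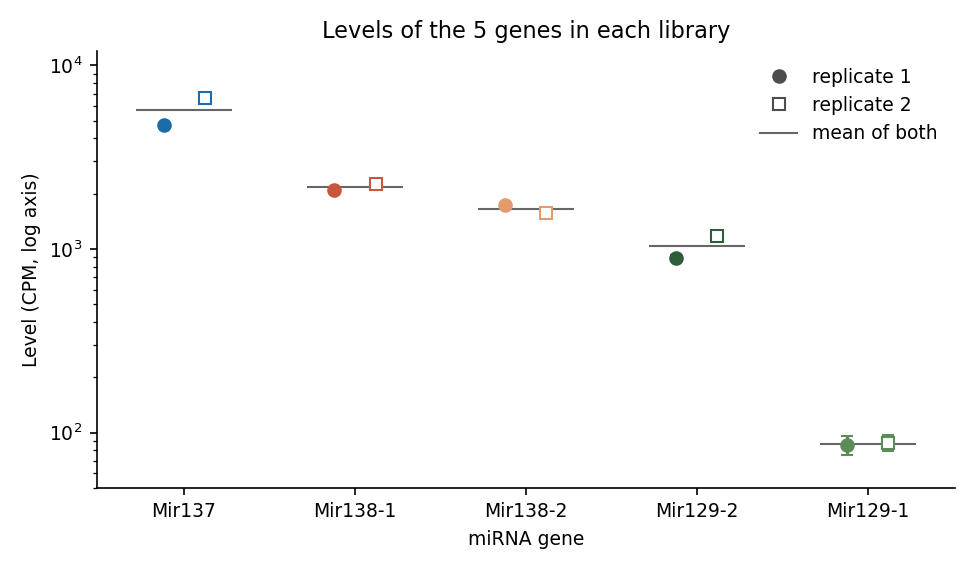
Level of each gene in CPM on a log axis, with 1 point per library, exact 95% counting intervals and a line at the mean of the 2 libraries. Mir137 stands highest at 4757 and 6655 CPM and Mir129-1 lowest at 85.5 and 87.9 CPM.

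By reads placed at a single gene, the order of the 5 genes was the same in both libraries, and no 2 neighbours in it overlapped. Mir137 stood 2.63-fold above Mir138-1 by the means, 2.27-fold in replicate 1 and 2.97-fold in replicate 2. Mir138-1 stood 1.31-fold above Mir138-2, and Mir138-2 stood 1.59-fold above Mir129-2. This last step was 1.94-fold in replicate 1 and 1.32-fold in replicate 2. The widest step was from Mir129-2 to Mir129-1, 12.0-fold by the means. CPM was not divided by gene length, on the assumption, which was not tested, that a read of this size class stands for 1 small RNA whatever the length of its gene. Per 100 bases of annotated gene, the order of the Mir138 copies turns round, with a log2 ratio of Mir138-1 over Mir138-2 of -0.09, against 0.39 in CPM.

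The 2 Mir138 genes had close levels, whereas Mir129-2 supplied most of the Mir129 counts. The ratio of Mir138-1 to Mir138-2 was 1.20 (exact interval 1.16 to 1.25) in replicate 1 and 1.44 (1.39 to 1.48) in replicate 2, or 1.32 ± 0.166 (SD, n = 2). Mir138-1 thus held 54.6% and 59.0% of the family's counts. The ratio of Mir129-1 to Mir129-2 was 0.0952 (0.0836 to 0.108) and 0.0744 (0.0669 to 0.0825), or 0.0848 ± 0.0147 (SD, n = 2), and Mir129-1 held 8.69% and 6.92%. These shares cover only reads placed at 1 copy.

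Both ratios moved between the libraries by more than counting error, and in both families the copies lay closer in replicate 1. For Mir138 the higher copy stood 1.20-fold above the lower in replicate 1 and 1.44-fold in replicate 2. For Mir129 it stood 10.5-fold and 13.4-fold above. The signs below differ because Mir138-1 is the higher copy in its family and Mir129-2 in the other. The log2 difference, replicate 1 minus replicate 2, was -0.26 for Mir138 (Fisher's exact test, 2-sided, adjusted p = 1.1e-12) and 0.36 for Mir129 (exact adjusted p = 0.0134), with Benjamini-Hochberg adjustment over 24 pairs. Of these 24 copy pairs in the table with at least 10 counts in each library, 7 were called, a background of 29.2%. The median size of the shift over the pairs was 0.40 on the log2 scale, and 9 pairs shifted less than Mir138 and 10 less than Mir129. Both shifts thus lay below the median of copy pairs in these libraries.

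Among those 24 pairs the 2 copies lay a median of 5.04-fold apart by the mean log2 ratio of the libraries, with quartiles of 2.03 and 14.7. In that mean, ratios on opposite sides of equality cancel, as for Mir26a at 2.43 in replicate 1 and 0.0924 in replicate 2. The Mir138 copies lay 1.32-fold apart, and 1 pair, Mir29b, was closer by this measure, with a mean ratio of 0.965. Its place rests on that cancelling, since its ratios were 1.23 and 0.704, beside 1.20 and 1.44 for Mir138. Mir29b is known for lowering collagen genes and, in neurons, genes of cell death. The third closest was Mirlet7a, of the let-7 family that marks differentiated tissue, at 1.71. The Mir129 copies lay 11.9-fold apart, and 15 pairs were closer. The widest pairs were Mir219a, a miRNA of oligodendrocyte maturation, at a mean ratio of 0.00143, Mir181b at 0.0129 and Mir181a at 43.3. In 22 of the 24 pairs the same copy was the higher in both libraries, as in Mir138 and Mir129, and the exceptions were Mir29b and Mir26a. In the 23 pairs with both hairpins in the table, the longest shared run was 22 to 33 bases with a median of 24, so the runs of 24 and 26 bases stand near the middle.

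**Figure D3:**
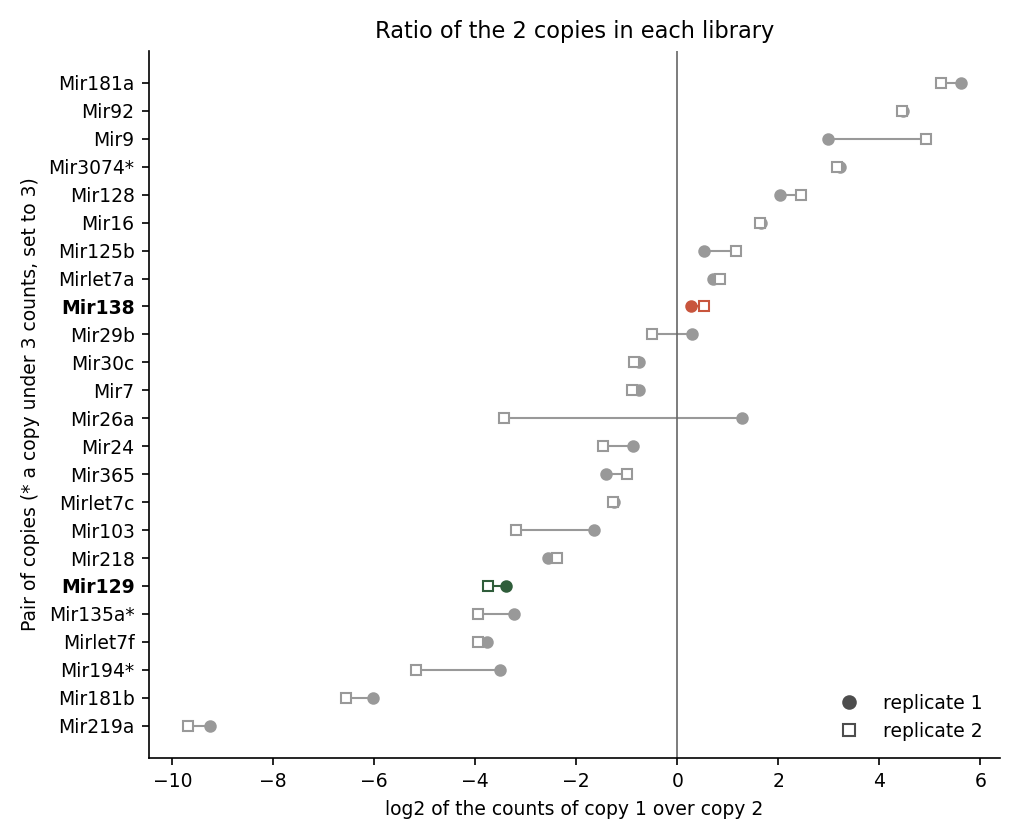
Ratio of copy 1 to copy 2 on a log2 axis for 24 pairs of miRNA genes, 1 point per library, with Mir138 and Mir129 marked and an asterisk where a copy under 3 counts was set to 3. As ratios, Mir138 sits near equal levels at 1.20 and 1.44, and Mir129 sits far to the side of Mir129-2 at 0.0952 and 0.0744.

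Summed over its copies, the Mir138 family had nearly the same CPM in both libraries before TMM scaling, with a smaller SD than either gene. It held 12037 and 16659 counts, which were 3838 CPM and 3805 CPM, or 3822 ± 23.3 (SD, n = 2). Its ratio between libraries after TMM scaling was 1.06 (interval 1.03 to 1.08). On that scale the sum lay between Mir138-1 at 0.981, which was nearer to equality, and Mir138-2 at 1.17. The Mir129 family held 3084 and 5560 counts, which were 983 CPM and 1270 CPM, or 1127 ± 203 (SD, n = 2), a ratio of 0.813 (0.778 to 0.850). The sum of Mir129 followed Mir129-2, its larger copy. Both sums leave out reads that match both copies of a family.

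Between the libraries, Mir137 and Mir129-2 were lower in replicate 1, Mir138-2 was higher there, and Mir138-1 and Mir129-1 did not pass the test. The ratio of replicate 1 to replicate 2 after TMM scaling was 0.750 for Mir137 (interval 0.736 to 0.765; exact binomial test, 2-sided, adjusted p = 9.3e-183). It was 0.797 for Mir129-2 (0.761 to 0.835; exact binomial adjusted p = 8.0e-22). It was 1.17 for Mir138-2 (1.13 to 1.21; exact binomial adjusted p = 1.7e-17). Mir138-1 had a ratio of 0.981 (0.950 to 1.01; exact binomial adjusted p = 0.290). Mir129-1 had a ratio of 1.02 (0.870 to 1.20; exact binomial adjusted p = 0.875), and its lower count leaves the wider interval. Adjustment was by Benjamini-Hochberg over 459 genes with at least 10 counts in either library.

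The test takes counting error alone as its null, and it called 261 of the 459 genes, a background of 56.9%, so 3 of 5 members is close to the share over all genes. Among genes with at least 100 counts in either library, as all 5 members have, 215 of 277 were called (77.6%). By direction, 2 of 5 members were lower in replicate 1, beside a background of 27.9%, and 1 of 5 was higher, beside 29.0%. The median size of the log2 ratio over the 459 genes was 0.40, or 1.32-fold, and it was 0.31 over the 159 genes with at least 1000 counts in either library. On the log2 scale Mir137 stood at -0.41, Mir129-2 at -0.33 and Mir138-2 at 0.23. The size of the Mir137 ratio exceeded that of 51.0% of the genes, the Mir129-2 ratio 41.0% and the Mir138-2 ratio 30.1%. No member's ratio lay far above the median size between these libraries. Scaled to all reads of a library, the log2 ratio of Mir138-2 was 0.034 (exact binomial adjusted p = 0.264) and that of Mir138-1 was -0.22 (exact binomial adjusted p = 1.1e-21). That scaling called 91 of 280 genes higher in replicate 1 (32.5%), where TMM scaling called 133 of 261 higher (51.0%), and it moved the median log2 ratio to -0.21.

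**Figure D4:**
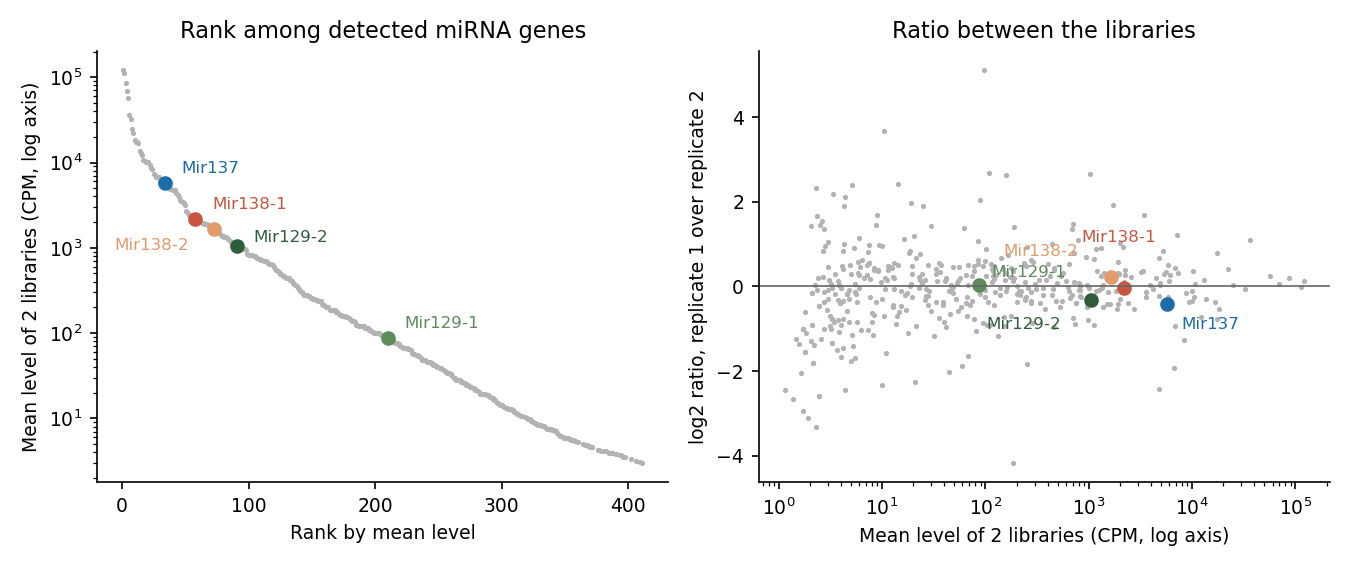
Left, mean level of the miRNA genes in CPM on a log axis against their rank, with the 5 genes marked; right, log2 ratio of replicate 1 over replicate 2 after TMM scaling against the mean level. The members run from rank 34 to rank 210, and their ratios, from -0.41 to 0.23, lie inside the cloud of the other genes.

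Markers of other cell types moved between the same libraries, and their calls stand beside backgrounds of 29.0% of all tested genes higher and 27.9% lower in replicate 1. In replicate 1 astrocyte markers summed to 6238 CPM, against 2125 CPM in replicate 2, and 2 of 3 were called higher in replicate 1. Most of that sum was Mir21a, at 5176 and 1686 CPM, and Mir31 stood at 1016 and 381 CPM. The third, Mir193a, went the other way at 45.0 and 58.0 CPM and was not called. Choroid plexus and ependyma markers summed to 2993 and 1094 CPM with 4 of 4 higher, and epithelial markers to 660 and 166 CPM with 7 of 7 higher. The epithelial list joined Mir200a, Mir200b, Mir200c and Mir141 with Mir183, Mir182 and Mir96, which are not markers of epithelium alone. Those last genes stood at 270, 89.9 and 7.33 CPM in replicate 1 and 45.5, 35.6 and 1.37 CPM in replicate 2. Endothelial markers summed to 12521 and 22475 CPM, with Mir126a lower in replicate 1 and Mir126b at 0 in both libraries. The 2 hindbrain and spinal cord markers summed to 138 and 502 CPM, both lower in replicate 1. Pericyte and smooth muscle markers summed to 8170 and 6864 CPM, with 2 of 2 higher in replicate 1. Oligodendrocyte markers summed to 6799 and 6685 CPM with 1 of 3 higher and 1 lower, and microglia and myeloid markers to 1881 and 2111 CPM with 1 of 4 lower. Red blood cell markers summed to 67.3 and 61.2 CPM with 1 of 2 higher, and the liver marker Mir122 stood at 28.4 and 38.4 CPM. Neuronal markers summed to 27350 and 23827 CPM, with Mir132 higher and Mir128-1 and Mir128-2 lower in replicate 1. The part of these differences in the ratios of Mir137, Mir138-2 and Mir129-2 was not tested.

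Mir129-2 is the member with a miRNA gene on its other strand, and its count depends on how strand was treated. Mir129b overlaps it on the plus strand, and each mature arm of Mir129-2 overlaps an arm of Mir129b by 20 bases. The Mir129b arms are shown because they are close to the reverse complement of those of Mir129-2, again with the seed in capitals.
miR-129b-5p: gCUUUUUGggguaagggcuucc
miR-129b-3p: cAAGCCCAgaccgcaaaaagauu
On its own strand Mir129b had 1 count in replicate 1 and 5 in replicate 2, against 2816 and 5175 for Mir129-2. The column read as counts without regard to strand gave Mir129-2 24 and 28 counts, which was 0.852% and 0.541% of its sense counts. In that column the ratio of Mir129-1 to Mir129-2 was 12.5. The other 4 members had the same count in both columns and 0 counts on the opposite strand. The loss was shared by other genes with such a partner. Of 27 detected genes with a miRNA gene on the other strand, 27 kept under 10% of their counts in that column and 24 kept 0. Reads called ambiguous in that column numbered 221479 in replicate 1 and 383239 in replicate 2, and 0 in the sense column.

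**Figure D5:**
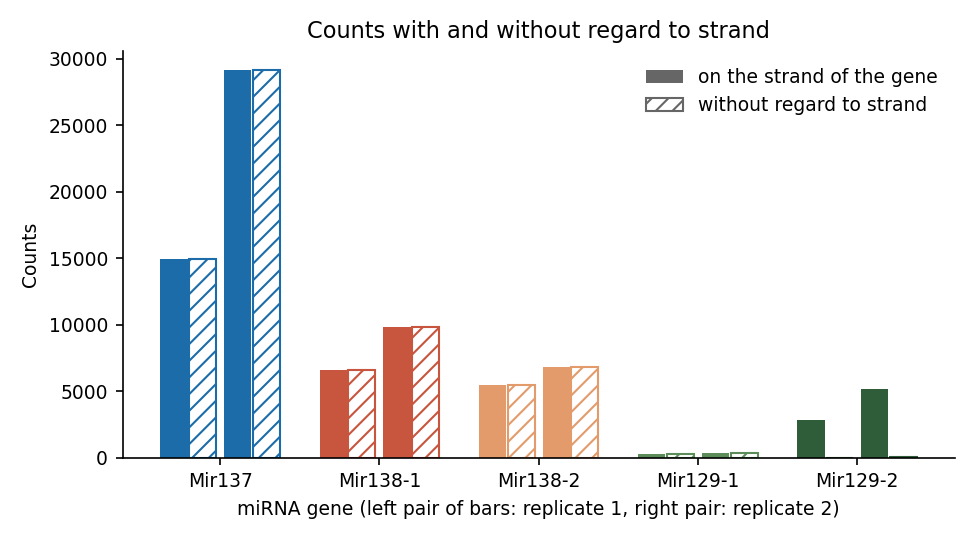
Bars of the counts of each gene on its own strand (filled) and without regard to strand (hatched), with replicate 1 as the left pair of bars and replicate 2 as the right pair. Mir129-2 drops to 24 and 28 counts without regard to strand, and the other 4 genes keep their sense counts.

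The 3 genes nearest to each member by their levels in both libraries, on the log2(CPM + 1) scale, give each level a context. Nearest to Mir137 were Mir30d at 5172 and 6490 CPM, Mir361 and Mir324. Nearest to Mir138-1 were Mir760 at 2210 and 2147 CPM, Mir485 and Mir369. Nearest to Mir138-2 were Mir185 at 1745 and 1631 CPM, Mir7b and Mir484. Nearest to Mir129-2 were Mir341 at 879 and 1145 CPM, Mir154 and Mir376a, and nearest to Mir129-1 were Mir483 at 82.0 and 93.2 CPM, Mir8112 and Mir16-2. With 2 libraries, this likeness is one of level.

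Of 30 other miRNA genes with known roles at synapses or in neurons, 26 had at least 10 counts in each library. Their median level was 251 CPM, beside 0 CPM over all 2202 genes and 116 CPM over the 384 detected genes, and the median of the 5 members was 1652 CPM. By the mean of the libraries, the highest was Mir132, induced by neuronal activity through CREB, at 21687 and 13106 CPM. Next came Mir125a at 8971 and 15538 CPM, Mir191 at 9424 and 10676 CPM, and Mir128-1, which lowers neuronal excitability in mice, at 4545 and 9069 CPM. Several genes of the list have copies, as Mir124a and Mir9 do, and reads that match several copies stand outside these levels. The medians and the order thus describe reads placed at a single gene and do not rank mature miRNAs. Of 27 genes of the list tested, 11 were called higher and 10 lower in replicate 1, beside backgrounds of 29.0% and 27.9% of all genes. Most of the list, 23 genes, had at least 100 counts in each library. Over all genes with at least 100 counts in either library, 77.6% were called in either direction. The median log2 ratio of the 27 was -0.07, and over all genes tested it was -0.03.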

How the data were processed

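Small-RNA libraries of 2 replicates of hippocampus were used. The authors deposited read counts per miRNA gene, not normalized, with 3 strand columns and 4 summary lines; mm10 and GENCODE M21 are named in the notes deposited with the tables, and the aligner and counter were not given in the sources used here. Of the strand columns, the one with the larger total (93.4% and 91.9% of both) was taken as sense. Library sizes left out the summary lines: unmapped 26.5% and 18.1%, multimapping 36.3% and 41.7%, no feature 5.72% and 5.91%. Mapping to mm10 used a reference of another strain than CAST, whose variants were not examined.

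CPM, TMM factors (0.976 and 1.02; edgeR 4.0.16, R 4.3.3), exact binomial and Fisher's exact tests (scipy 1.17.1) with a threshold of 0.05 after Benjamini-Hochberg adjustment, and sequence comparisons (Python 3.11.15) were computed from these counts. Log2 ratios had 0.5 CPM added. Genes called detected had 10 counts in each library. The tests were checked on simulated counts that held counting error alone, without the further spread seen between these libraries. Alternatives covered scaling (DESeq2 1.42.0 size factors among them), count minimum, pseudocount, strand and denominator. The members and lists were chosen with earlier results of these data known. Genes named are the members, the 3 nearest in level to each, the 4 most abundant of the synapse list, the 3 widest and 3 closest copy pairs, marker genes, and hosts or neighbours.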

Additional observations from a re-analysis of the deposited data

Results flagged for a closer look

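Mir129-2 had 5 counts on the strand opposite to the gene in replicate 2 and 1 in replicate 1. The column of these counts entered no level or ratio of the main results. It served to choose the sense column, to give the members' opposite-strand counts and, summed with the sense column, as an alternative. The opposite-strand counts of Mir129-2 equal the counts of the overlapping gene Mir129b on its own strand. They were singled out because a count of 0 allows up to 3 counts, which replicate 2 exceeds and replicate 1 does not. No control samples were at hand, and the origin of these reads was not tested.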

How the results depend on the processing

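No paired analysis was possible because there is 1 group. Over all settings tried, 85 values kept their direction and side of the threshold or, with no test, moved by less than 1 SD (for counts of genes, by less than 1.5 times). A further 20 moved by more, 6 turned round, 2 passed the test only under the alternative and 1 no longer passed. Part of the 85 was fixed in advance and says nothing of stability. With 2 libraries, leaving 1 out always shifts a mean by less than 1 SD, and the pseudocount does not enter the exact tests. Part of the 20 likewise only shows that a larger denominator lowers every level and share. With all reads as the denominator, the means were 1890 (Mir137), 715 (Mir138-1), 542 (Mir138-2), 28.5 (Mir129-1) and 344 (Mir129-2) CPM and the members' share 0.352%. With assigned and multimapping reads they were 2606, 993, 757, 39.7 and 475 CPM and 0.487%. Counts without regard to strand gave 2358 CPM for Mir138-1, 1793 for Mir138-2, 94.2 for Mir129-1 and 7.62 for Mir129-2. With these, the ratio of Mir129-1 to Mir129-2 was 12.5, its log2 difference between libraries -0.30 (exact adjusted p = 0.670), and the log2 ratio of Mir129-2 between libraries 0.29 (exact adjusted p = 0.581). Both strand columns summed gave 2011 CPM for Mir138-1 and 80.3 for Mir129-1. Per 100 bases of gene, the log2 ratios were 1.83 for Mir137 over Mir138-1, -0.086 for Mir138-1 over Mir138-2 and 3.28 for Mir129-2 over Mir129-1.

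Between libraries, Mir138-1 passed the test at a log2 ratio of -0.10 with unscaled assigned counts (exact adjusted p = 4.8e-05) and -0.22 with all reads (exact adjusted p = 1.1e-21). Mir129-1 stood at -0.041 and -0.16 under these (exact adjusted p = 0.815 and 0.217). Mir138-2 no longer passed with all reads, at 0.034 (exact adjusted p = 0.264). All reads move the median log2 ratio over all tested genes to -0.21, against -0.03 with TMM, and 91 of the 280 genes then called were higher in replicate 1 (32.5%, against 51.0% with TMM). Leaving out a library gives the other library's level, and no ratio between libraries. Mir129-1, at 268 and 385 counts, has the least precise values.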
